A study of Mus musculus with 18 samples.

Results

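Fetub encodes fetuin-B, and its level is described here in mammary tumours of mice with an ERBB2 (neu) transgene, with and without Snai2. Fetub was taken by its symbol in the platform annotation, which gave 1 probe set, shared with no other gene, and made it 1 of 19938 genes measured. It was chosen by its measured log2 difference between parous and nulliparous mice with intact Snai2 (WT), the largest rise of all genes. That comparison selected it and is therefore given as a description with no test.

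The study measured RNA of 18 mammary tumours on single-colour Affymetrix arrays, 1 array a tumour by the labels. Every mouse carried the neu transgene of the FVB/N-Tg(MMTVneu)202Mul/J line, which the mammary tumour virus promoter drives mainly in mammary epithelium. Snai2 encodes a zinc finger repressor of the Snail family, and the mice without it (KO) carry the deficient allele of the B6;129S1-Snai2tm2Grid/J stock, which is inherited and so present in all cells of the animal. Mice were parous (with past pregnancies) or nulliparous, and had or lacked metastasis. The groups were WT nulliparous with metastasis (4 arrays), WT parous with metastasis (4), KO nulliparous without metastasis (3), KO nulliparous with metastasis (1), KO parous without metastasis (3) and KO parous with metastasis (3). Ages and the strain mix of each animal are not given in the sources used here, and all 8 WT tumours are from mice with metastasis.

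In the last of these groups, the arrays of replicates 2 and 3 were almost the same: their log2 values differed with an SD of 0.102 across 10252 genes, where no other of the 153 array pairs had an SD under 0.285. Their mean was used as 1 sample, which left 17. The log2 level of Snai2 was 6.54 ± 0.17 (SD, n = 9) in KO tumours, where WT tumours had 6.84 ± 0.17 (SD, n = 8), with 7 of 9 KO samples below the lowest WT sample. Whether its probes lie in the deleted stretch is not known here. The epithelial genes Krt8, Krt18, Epcam and Cdh1 were between 11.23 and 13.66 in every sample. They belong to a list of 18 luminal markers whose mean was lower, between 10.56 and 11.13, and whether the tumours are luminal was not tested. Erbb2 was bright in all samples, between 12.45 and 12.92.

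Fetuin-B is a plasma protein of the cystatin superfamily that the liver makes and secretes. It inhibits some metalloproteases of the astacin family, such as the egg enzyme ovastacin and the meprins. By holding ovastacin in check it keeps the zona pellucida, the coat of the egg, from hardening before fertilisation, and female mice without it are infertile. Its nearest relative is fetuin-A (Ahsg), which binds calcium phosphate in blood. Kininogens (Kng1, Kng2), the precursors of kinins, and histidine-rich glycoprotein (Hrg) are further members of that superfamily.

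The genes of these 5 proteins lie next to each other on mouse chromosome 16. The promoters of Fetub and Ahsg are shown because both genes were high in the same tumours, as the values show. Each line holds the 250 bases before the start site, from RefSeq on GRCm38.p6, 5′ to 3′ on the plus strand, which is the strand of both genes. Capitals mark the longest run of letters that both windows hold on that strand (CTGTTTGCAAG, 11 bases) and a TATA box (TATAAA).
Fetub, chr16:22918132-22918381: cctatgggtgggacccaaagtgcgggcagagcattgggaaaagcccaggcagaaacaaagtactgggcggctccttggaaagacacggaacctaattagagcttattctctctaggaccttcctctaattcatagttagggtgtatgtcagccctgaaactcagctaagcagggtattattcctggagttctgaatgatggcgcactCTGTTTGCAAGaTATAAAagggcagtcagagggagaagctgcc
Ahsg, chr16:22891765-22892014: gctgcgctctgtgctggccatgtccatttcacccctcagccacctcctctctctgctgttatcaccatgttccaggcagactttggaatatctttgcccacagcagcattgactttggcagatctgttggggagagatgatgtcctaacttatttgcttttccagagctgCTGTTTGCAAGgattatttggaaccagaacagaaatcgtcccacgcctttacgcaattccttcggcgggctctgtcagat
The shared run lies at bases -43 to -33 from the start site in Fetub and at -80 to -70 in Ahsg. Among 32851 RefSeq promoters of 300 bases (250 before to 50 after the start), searched on both strands, 13 (0.04%) hold this run. Its length and letters were read off these 2 promoters, so its rarity is a description. The TATA box lies at -31 to -26 of Fetub, and 13.6% of promoters hold TATAAA.

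Fetub has 2 listed promoter windows; the other held none of the motifs searched. The E-box CAGGTG, the letters Snail family factors are known to bind, was searched because Snai2 is the gene removed. Fetub holds it once on the minus strand, at bases 27 to 32 after the start, shown with its surroundings and the E-box in capitals.
E-box of Fetub, chr16:22918396-22918425, plus strand: ctccatcgggaaCACCTGgagaggatccct
This E-box is in 20.2% of all promoters, and the Ahsg window has none. The core of the interferon-stimulated response element (GAAA and GAAA with 2 bases of any kind between, in 3.44% of promoters) and an HNF1 site (GTTAAT and ATTAAC with any base between, in 0.009%) were found in neither gene's windows. A match is a match of letters and no evidence of binding.

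Fetub varied more than nearly every other gene: its SD over the 17 samples was 2.02 on the log2 scale, the 4th highest of all genes, where the median gene had 0.166. In WT nulliparous tumours replicates 1 to 4 were at 6.67, 9.44, 8.56 and 7.23. In WT parous tumours replicates 1 to 4 were at 12.20, 11.27, 12.88 and 12.83. The 2 WT groups did not overlap, and the WT nulliparous tumours held the 4 lowest levels of all 17 samples.

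KO nulliparous tumours without metastasis had Fetub at 10.59, 12.33 and 12.14, and the lone KO nulliparous tumour with metastasis was at 10.81. KO parous tumours without metastasis were at 12.43, 9.49 and 12.87. KO parous tumours with metastasis were at 13.01, 10.18 and 10.52, where the latter pair, with a mean of 10.35, are the nearly identical arrays. Every KO group thus spanned levels between those of the WT groups and levels as high as WT parous tumours, apart from the group of a single tumour.

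**Figure D1:**
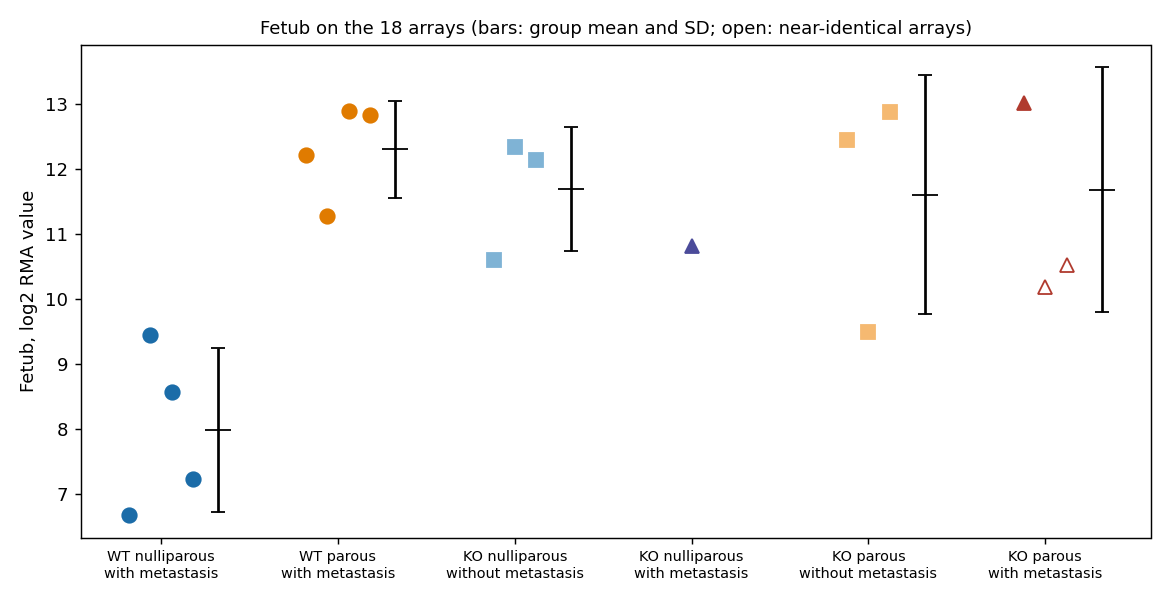
Fetub log2 expression (vertical axis) on each of the 18 arrays, by group (horizontal axis), with the group mean and SD over the 17 samples. The 4 WT nulliparous tumours lie between 6.67 and 9.44, the 4 WT parous tumours between 11.27 and 12.88, and the KO groups overlap each other.

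By group mean, the order of Fetub levels from low to high was WT nulliparous at 7.98 ± 1.26 (SD, n = 4), the KO nulliparous tumour with metastasis at 10.81 (n = 1), KO parous without metastasis at 11.60 ± 1.84 (SD, n = 3), KO parous with metastasis at 11.68 ± 1.88 (SD, n = 2), KO nulliparous without metastasis at 11.69 ± 0.95 (SD, n = 3) and WT parous at 12.30 ± 0.75 (SD, n = 4). Neighbours in this order differed by less than their spread, except for the step above WT nulliparous tumours, where the means lie further apart than the SD of that group. Even there single tumours nearly met: the highest WT nulliparous level (9.44) lay 0.04 below the lowest KO level (9.49). Gaps of this size are smaller than the 0.34 between the nearly identical arrays.

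WT parous minus WT nulliparous tumours gave a Fetub difference of 4.32 (SE 0.84) on the log2 scale, or about 20-fold. It was the largest of all genes, and the next was Dlgap1, which encodes a scaffold protein of synapses, at 3.41 (SE 0.63). With any of the 8 WT tumours left out, the Fetub difference lay between 3.89 and 4.81. In bulk tumour RNA, fewer cells that express a gene and less of its RNA in each cell cannot be told apart.

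Within KO tumours, which the choice of Fetub did not use, the same question could be tested. KO parous minus KO nulliparous tumours without metastasis differed by -0.09 (SE 0.98, 95% confidence interval -2.20 to 2.01, limma adjusted p = 1.00). Over all KO tumours, parous ones were at 11.63 ± 1.61 (SD, n = 5) and nulliparous ones at 11.47 ± 0.89 (SD, n = 4), a difference of 0.16 (exact permutation test, 2-sided, p = 0.849 over 126 splits, where 0.00794 is the smallest possible). Neither test detected a difference of Fetub with parity in KO tumours, and the interval reaches past 2 in either direction.

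The lowest KO tumour, replicate 2 of KO parous mice without metastasis at 9.49, moved this comparison most: without it the difference of Fetub in mice without metastasis was 0.96 (SE 0.91, limma adjusted p = 0.999). The sign also turned without KO nulliparous replicate 2 (0.23) or 3 (0.13). Over all KO tumours it turned without replicate 1 or 3 of KO parous mice without metastasis, replicate 1 of those with metastasis, the lone KO nulliparous tumour with metastasis or KO nulliparous replicate 1 without it, with a lowest value of -0.18. Metastasis status could be compared within KO parous tumours. Fetub was at 11.68 with and 11.60 without metastasis, a difference of 0.08 (SE 1.09, 95% confidence interval -2.27 to 2.44, limma adjusted p = 0.998). With the nearly identical arrays kept apart this difference was -0.36 (SE 0.97, limma adjusted p = 0.97). It was -1.25 without replicate 1 of the group with metastasis and -0.97 without replicate 2 of the group without.

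The comparisons between genotypes share the WT samples that chose Fetub and are given without a test. Among nulliparous mice, KO tumours without metastasis had Fetub 3.71 (SE 0.91) above WT tumours with metastasis, and genotype and metastasis status cannot be told apart in that contrast. Among parous mice with metastasis, KO minus WT was -0.62 (SE 1.03). The parity difference in KO minus that in WT was -4.41 (SE 1.29). It contains the WT difference that chose Fetub, and genotype and metastasis status cannot be told apart in it.

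Fetuin-A, encoded by the neighbouring gene Ahsg, went with Fetub in steps rather than by degrees. Ahsg fell into 2 sets with a gap between them: 9 samples lay between 6.31 and 7.49 and 8 samples between 9.03 and 9.81. In the upper set Fetub was between 12.14 and 13.01, and in the lower set between 6.67 and 11.27, so the 8 tumours highest in Fetub were the same 8 tumours that were high in Ahsg. The upper set held 3 WT parous, 2 KO nulliparous without metastasis, 2 KO parous without metastasis and 1 KO parous with metastasis tumours, and 0 WT nulliparous tumours. Within the sets Pearson r between the genes was 0.18 (8 samples) and 0.03 (9 samples). A pooled correlation of the 2 genes would therefore describe that step.

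**Figure D2:**
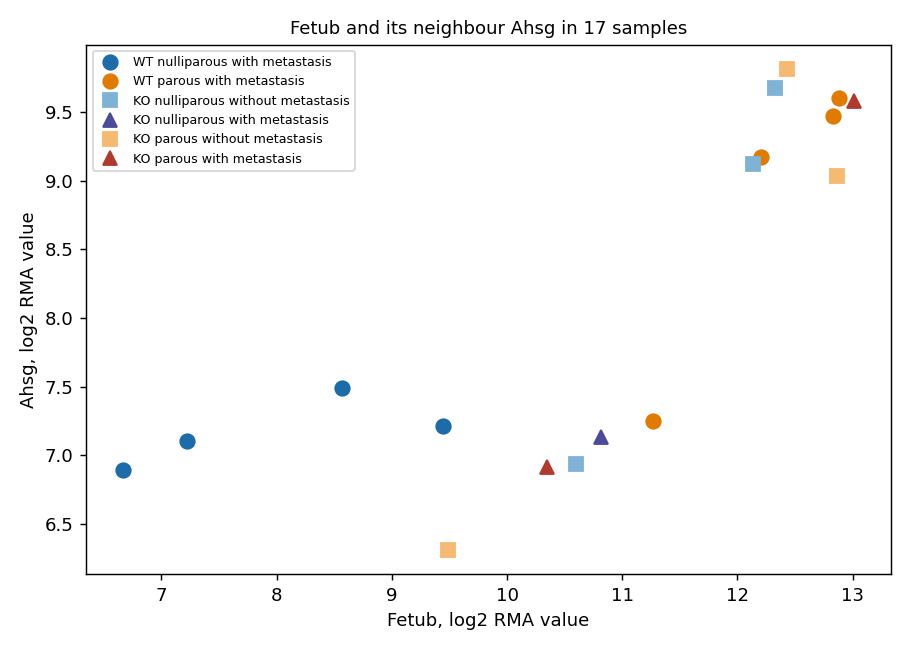
Ahsg against Fetub log2 expression in each of the 17 samples, coloured by group. The 8 samples with Ahsg at 9.03 or higher all have Fetub at 12.14 or higher, and the other 9 have Ahsg at 7.49 or lower.

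In WT nulliparous tumours Ahsg was at 6.89, 7.22, 7.49 and 7.11, and in WT parous tumours at 9.17, 7.25, 9.60 and 9.47. The WT groups overlapped through WT parous replicate 2, which also had the lowest Fetub of its group. Ahsg differed by 1.70 (SE 0.84, limma adjusted p = 0.347) between them, which did not pass. In KO tumours without metastasis it was at 6.94, 9.67 and 9.12 when nulliparous and at 9.81, 6.31 and 9.03 when parous, a difference of -0.19 (SE 0.97). In both KO groups 1 tumour of 3 lay in the lower set, and over all KO tumours the parity difference of Ahsg was 0.11 (exact permutation test, 2-sided, p = 0.921).

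Of the 4 other measured genes of the fetuin, kininogen and Hrg group, 1 rose in parous WT tumours and 3 did not pass. Kng2 was at 7.34 ± 0.13 (SD, n = 4) in WT nulliparous and 8.28 ± 0.41 (SD, n = 4) in WT parous tumours, with no overlap, and rose by 0.94 (SE 0.22, limma adjusted p = 0.0414). Among all genes 0.542% were called higher and 1.86% lower in this comparison (108 and 370 of 19938). After quantile normalization over the tested genes these counts were 152 and 276. The Kng2 call held in 8 of 16 alternatives, with adjusted p between 0.0282 and 0.128. It was lost without any of the 4 WT nulliparous tumours, without WT parous replicates 1, 3 or 4, and with replicate number as a block. Kng1 was at 0.17 (SE 0.06, limma adjusted p = 0.147) and Hrg at 0.02 (SE 0.05, limma adjusted p = 0.929). In KO tumours 0 of the 4 passed for parity or metastasis, where 0% of all genes were called by limma in either direction and 655 and 805 genes had an unadjusted p under 0.05.

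Among the proteases of the astacin family, to which ovastacin and the meprins belong, no change was detected. Of 6 measured astacins, 0 passed in any of the 3 tested comparisons. Among all genes 0.542% were called higher and 1.86% lower in WT parity, and 0% in the KO comparisons. A count of 0 among so few genes is close to that share and is no result about them. Ovastacin (Astl) lay between 5.68 and 6.07 on all arrays, and its WT parity difference was 0.04 (SE 0.07). Those of the meprin subunits were -0.03 (Mep1a) and 0.07 (Mep1b). Bmp1, which cleaves procollagen, was at -0.60 (SE 0.34, limma adjusted p = 0.42) in WT and 0.63 in KO without metastasis, and its relatives Tll1 and Tll2 were at -0.16 and -0.06 in WT. The deposited values hold no detection calls, so whether levels as low as that of Astl lie above background cannot be told. Bmp1 was brighter, between 9.66 and 11.98 on all arrays. The 5 measured zona pellucida genes did not pass either, and for them too the count is no result.

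Other secreted protease inhibitors gave no call, where 0.542% of all genes were called higher and 1.86% lower in WT parity. Counts of 0 in lists of this size are close to that share and are no result about the lists. In WT parity, 0 of 15 cystatins and stefins passed, with a median of -0.02 and a range from -1.47 (Cst10) to 0.37 (Cst6). The value of Cst10 rests mostly on a single array, WT nulliparous replicate 3 at 10.85, while the other 3 tumours of that group lay between 6.16 and 6.61. Of 22 serpins 0 passed, from -0.82 (Serpinf1) to 1.03 (Serpinb8), and of 35 further inhibitors 0 passed, from -0.92 (Timp2) to 2.03 (A2m). A2m encodes alpha-2-macroglobulin, a plasma protein that traps proteases of many kinds. It was at 9.91 ± 1.21 (SD, n = 4) in WT nulliparous and 11.94 ± 0.13 (SD, n = 4) in WT parous tumours, and its limma adjusted p was 0.0995.

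Fetub is chiefly a liver gene, so other liver genes were read beside it. Of 24 measured genes of liver plasma proteins 0 passed in WT parity, and their median was -0.01, close to that of all genes at -0.01. This count, like that of the liver transcription factors given last, is close to the share of all genes (0.542% called higher and 1.86% lower). Neither count is a result about its list. Albumin (Alb) lay between 5.42 and 5.79, apolipoprotein A1 (Apoa1) between 7.33 and 7.75, fibrinogen alpha (Fga) between 6.07 and 6.54 and transthyretin (Ttr) between 5.57 and 6.07 over the 17 samples, where the range of Fetub was 6.35. Other genes of the list varied more: apolipoprotein C1 (Apoc1) lay between 7.77 and 13.02, Cyp2e1, a drug-metabolising enzyme, between 5.41 and 9.09 and haptoglobin (Hp) between 6.68 and 8.89. The highest Cyp2e1 and Hp levels were both in WT nulliparous replicate 1, where Fetub was lowest. The adipocyte marker Adipoq was also highest in that tumour, at 8.12, and between 5.94 and 6.63 on all other arrays. Which cells these levels come from was not tested. Fibrinogen gamma (Fgg) had the highest WT parity difference of the list, 0.64 (SE 0.29, limma adjusted p = 0.306). Its Pearson r with Fetub was 0.59 in WT and 0.59 in KO. Of the 24 genes, 13 in WT and 6 in KO had an r below 0. The mean of the 24 genes had a Pearson r with Fetub of -0.54 over 8 WT and 0.49 over 9 KO samples (-0.25 over all 17). Of 19 liver-enriched transcription factors 0 passed, with the highest difference, 0.93 (SE 0.52, limma adjusted p = 0.417), in Nr1i2, the pregnane X receptor that senses foreign compounds.

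The genes most like Fetub were found by Pearson r over the 17 samples among 1329 genes with an SD of at least 0.5, and 1300 of these had a name that was used. The samples share their groups, and the WT difference that chose Fetub is part of every r over 17 or over 8 WT samples. The r over 9 KO samples comes from tumours that the choice of Fetub did not use. The genes named below, however, were chosen by r over samples that include these KO tumours. Their r in KO is therefore also a description and no separate support. Of the 1329 genes, 23 had r at or above 0.8 and 81 at or below -0.8. In both WT and KO these limits were met by 10 and 35 genes. The median r of the 1329 genes was -0.25, so more of them had an r below 0 than above it.

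Bche had the highest r, 0.90 over 17 samples, 0.91 in WT and 0.85 in KO. It encodes butyrylcholinesterase, an enzyme that the liver also secretes into plasma. Bche was at 7.80, 8.07, 7.54 and 8.33 in WT nulliparous and at 10.96, 9.88, 10.74 and 10.42 in WT parous tumours. Its difference, read as a description because the gene was chosen for this pattern, was 2.56 in WT and -0.51 in KO without metastasis. In KO parous tumours it was at 10.26, 8.70 and 10.80 without metastasis, with replicate 2 the lowest as for Fetub.

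Unc79, which encodes a subunit of the sodium leak channel complex, was next with an r of 0.90, with 0.94 in WT and 0.90 in KO, and it led the genes with a high r in both. All 4 WT nulliparous tumours lay between 6.25 and 6.47, and the WT parous tumours were at 8.71, 7.74, 9.35 and 8.77. The lowest level of all 17 samples, 6.03, was again in replicate 2 of KO parous mice without metastasis. The cytokine gene Il18 had an r of 0.89 (0.93 in WT and 0.73 in KO). Dlgap1 had 0.86 (0.94 in WT and 0.70 in KO), and its WT difference of 3.41 stood against -1.35 in KO tumours without metastasis. There a single tumour stood apart, since replicate 2 of the KO parous group was at 6.31 and the other 5 tumours were between 9.70 and 10.37.

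The rest of the 10 highest were Luzp2 (r 0.89), the long non-coding RNA Mir100hg (0.87), Aif1l (0.86), Arhgap39 (0.85), Crot, which transfers octanoyl groups to carnitine in peroxisomes (0.85), and Cpeb2, which binds mRNA tails (0.84). In KO tumours their r ran from 0.63 (Luzp2) to 0.81 (Aif1l). By the smaller r of WT and KO, the first 5 were Unc79, Comp, Ahsg, Bche and Rida. Comp encodes a matrix protein of cartilage, and its r was 0.96 in WT and 0.89 in KO but 0.60 over all 17 samples. Within each genotype it followed Fetub more closely than across them, since WT nulliparous tumours had Comp at 9.61, 10.27, 10.24 and 10.03 and KO parous without metastasis replicate 2 had it at 7.12.

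**Figure D3:**
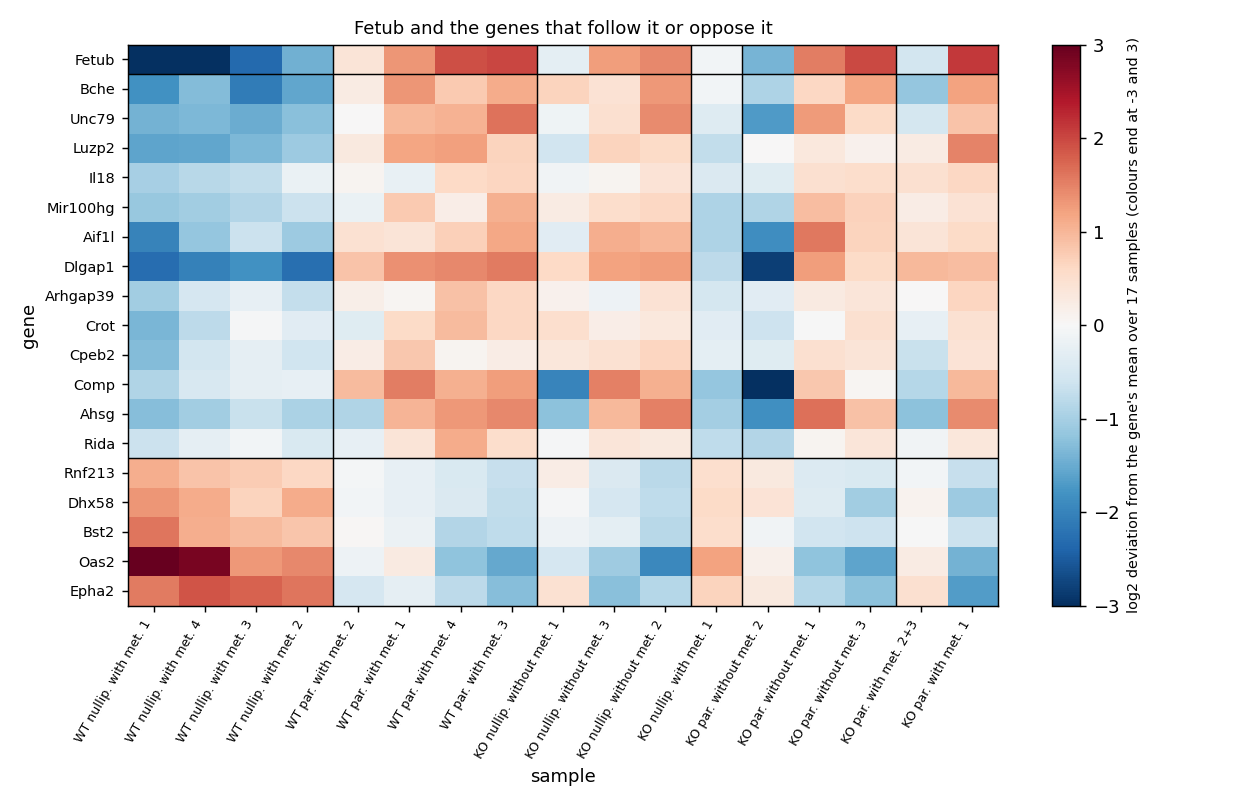
Log2 deviation from the gene's mean over 17 samples (colour) of Fetub and the named genes (rows) in each sample (columns, by group). Fetub is the first row, the genes of high Pearson r with it come next, and the 5 genes of lowest r are the last rows.

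The 5 genes with the lowest r were Rnf213 (-0.94), Dhx58 (-0.93), Bst2 (-0.93), Oas2 (-0.93) and Epha2 (-0.93). The first 4 are known to be induced by interferon: Dhx58 encodes the RNA sensor LGP2, Bst2 encodes tetherin, which holds budding virions at the cell surface, Oas2 makes the second messenger of RNase L, and Rnf213 is a large ubiquitin ligase. Epha2 encodes a receptor tyrosine kinase for ephrins. In KO their r ran from -0.72 (Bst2) to -0.91 (Epha2). As deviations from the group means, which leave out every difference between groups, Rnf213 and Oas2 both had an r of -0.89 with Fetub. Bche and Unc79 at the other end had 0.72 and 0.80. The lone KO nulliparous tumour with metastasis, a group of its own, was left out of these r.

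Oas2 was at 12.41, 10.70, 10.55 and 12.11 in WT nulliparous tumours and at 9.52, 9.10, 7.71 and 8.04 in WT parous tumours, without overlap. Within the WT parous group the order of Oas2 is not the exact reverse of Fetub, as the lowest Fetub (11.27) went with the second highest Oas2 (9.10). In KO nulliparous tumours Oas2 was at 8.74, 7.32 and 8.19 without metastasis and at 10.46 with metastasis. Epha2 was between 11.50 and 11.83 in WT nulliparous and between 8.65 and 9.66 in WT parous tumours, so its range within a group was smaller than the gap of the group means.

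Because these were interferon-stimulated genes, a list of 26 such genes was added after their values had been seen and is given as a description. Of its members 24 were measured, and all 24 had a WT parity difference below 0, with a median of -1.54 and a range from -2.85 (Oas2) to -0.59 (Irf9). In KO tumours without metastasis the median parity difference was 0.26, with 21 of 24 above 0. The mean of the list was between 10.53 and 11.15 in WT nulliparous and between 8.55 and 9.64 in WT parous tumours. In KO nulliparous tumours it was between 8.31 and 9.34 without metastasis and at 10.55 with metastasis.

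The mean of these genes had a Pearson r with Fetub of -0.91 over 17 samples, -0.97 over 8 WT and -0.76 over 9 KO samples. In WT 24 of 24 members had an r below 0, and in KO 23 of 24 did, with Irf9 at 0.27. Oas2, Dhx58 and Bst2 are in the list and were chosen above by their low r with Fetub. The r of the list mean and these counts are therefore descriptions and no separate support. The KO nulliparous tumour with metastasis had a list mean as high as WT nulliparous tumours, and its Fetub level of 10.81 lay above all of them.

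**Figure D4:**
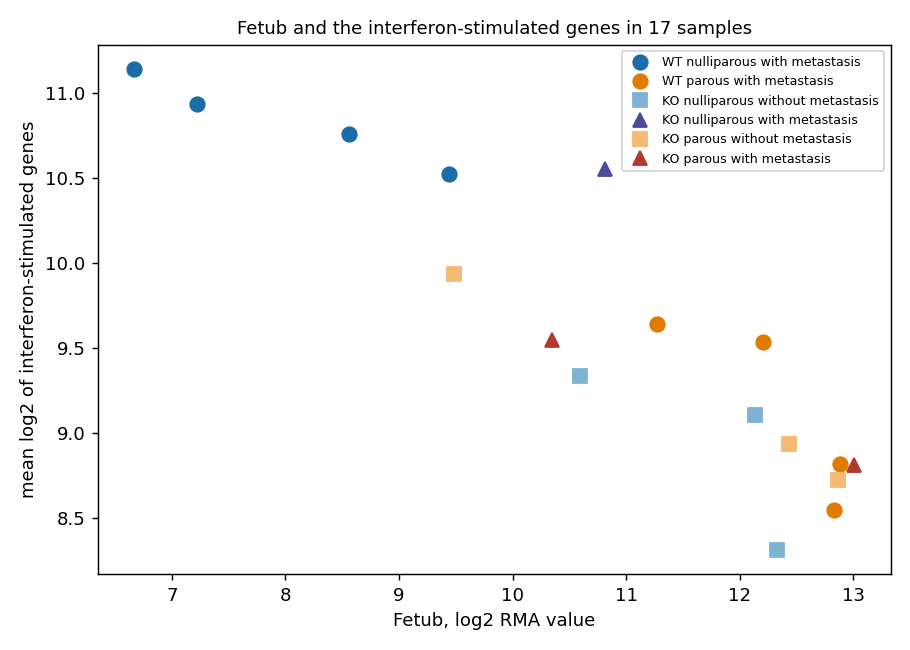
Mean log2 expression of 24 interferon-stimulated genes against Fetub log2 expression in the 17 samples, coloured by group. WT nulliparous tumours lie at 10.53 to 11.15 on the list mean with the lowest Fetub levels, and the KO nulliparous tumour with metastasis lies at 10.55 with Fetub at 10.81.

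The genes around Fetub on chromosome 16 were read for the same contrasts. Of the 20 measured neighbours, 10 on each side in RefSeq gene order, 1 was called in WT parity (Kng2, higher) and 0 in the KO comparisons, where 0.542% of all genes were called higher and 1.86% lower in WT and 0% in KO. Their median WT difference was 0.05, with 12 of 20 above 0 and a range from -0.63 (Adipoq) to 1.70 (Ahsg). On one side Fetub is followed by Hrg, Kng2 and Kng1, and on the other by Ahsg, Dnajb11 and Tbccd1. Dnajb11, a chaperone of the endoplasmic reticulum, was at -0.11 and Tbccd1 at -0.01. Hrg, the gene next to Fetub on one side, was at 0.02 while Ahsg on the other was at 1.70. Snai2 is on the same chromosome, with 121 measured genes between it and Fetub. How far the stretch inherited with the deficient allele reaches was not tested.

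**Figure D5:**
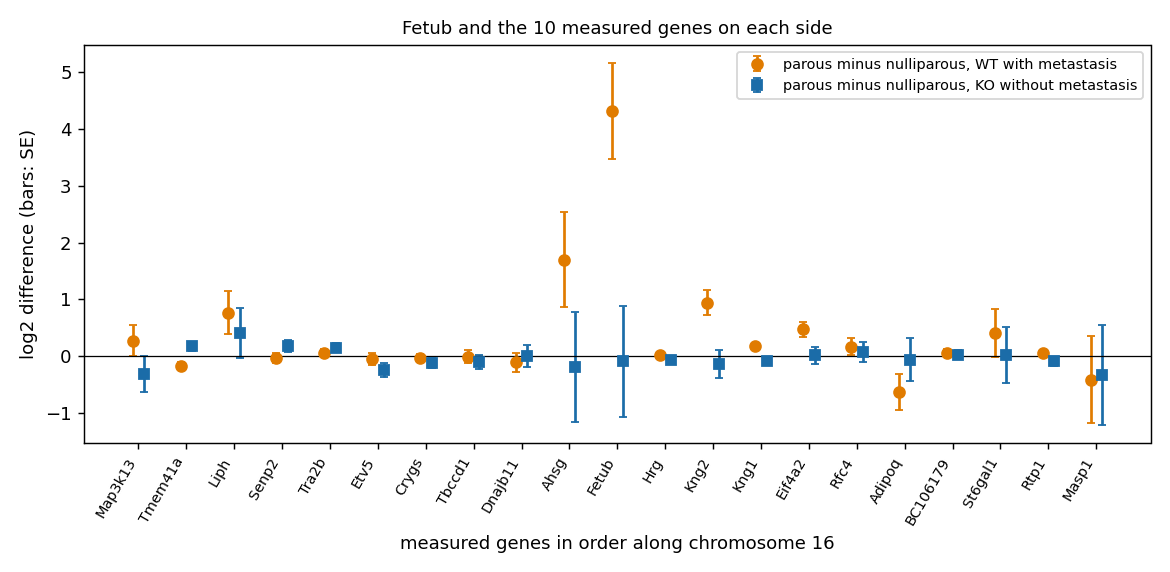
Log2 difference with its SE in parous minus nulliparous WT tumours and KO tumours without metastasis, for Fetub and 10 measured genes on each side in gene order on chromosome 16. Fetub at 4.32 and Ahsg at 1.70 stand highest in WT, and the median of the 20 neighbours is 0.05.

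Beside the higher Fetub, 3 markers in all the cell type lists together were called lower in parous WT tumours. That share of the pooled members is close to the 1.86% of all genes called lower, so the pooled count is no result about these lists. Of 13 adipocyte markers 1 fell, Lipe, the hormone-sensitive lipase, by 0.70 on the log2 scale (SE 0.14, limma adjusted p = 0.0274). In this list 12 of 13 markers were below 0, and the list median was -0.48. Among 14 markers of T and NK cells 2 fell, namely Nkg7, a granule protein of cytotoxic cells, at -1.48 (SE 0.34, limma adjusted p = 0.0385) and Ncr1, a receptor of NK cells, at -0.40 (SE 0.09, limma adjusted p = 0.042). In the T and NK cell list 14 of 14 markers were below 0, with a median of -0.34. Its list mean was 6.49 to 7.46 in WT nulliparous and 6.31 to 6.43 in WT parous tumours. These calls held in 10 of 16 (Lipe), 7 of 15 (Nkg7) and 6 of 15 (Ncr1) alternatives. All 3 were lost with replicate number as a block and without WT parous replicate 1, 3 or 4 or WT nulliparous replicate 1 or 4. Nkg7 and Ncr1 were also lost without WT parous replicate 2 and when only the 2 groups were fitted, and Ncr1 without WT nulliparous replicate 3. The adjusted p ran from 0.0171 to 0.091 (Lipe), from 0.0116 to 0.108 (Nkg7) and from 0.00894 to 0.137 (Ncr1).

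No macrophage or fibroblast marker passed in WT parity, although 13 of 14 macrophage markers (median -0.55) and 14 of 14 fibroblast markers (median -0.59) were below 0, where the median of all genes was -0.01. The macrophage list mean was 9.25 to 9.68 in WT nulliparous and 8.74 to 9.69 in WT parous tumours, and that of fibroblasts was 9.62 to 10.52 and 8.30 to 10.26. Skeletal muscle markers were below 0 in 15 of 15 (median -0.79), with a list mean of 7.12 to 10.73 in WT nulliparous and 7.09 to 8.23 in WT parous tumours. The luminal, basal, milk, endothelial, neutrophil and B and plasma cell lists had medians of -0.07, -0.02, -0.60, -0.22, 0.04 and -0.07, with 0 members passing. Milk genes stood at a median of 0.69 for parity in KO tumours without metastasis, where 13 of 13 were above 0 and 0 passed. The part of these cell types in the Fetub difference was not tested.

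In KO tumours, where Fetub also spread over 3.52 on the log2 scale, the cell type lists whose means ran most against it were those of basal markers (Pearson r -0.89, n = 9), neutrophil markers (-0.74), luminal markers and milk genes (both -0.73). The adipocyte (-0.17), T and NK cell (-0.09) and muscle (0.21) lists did not, though they ran against Fetub in WT (-0.72, -0.68 and -0.63, n = 8). Basal (-0.67), luminal (-0.74) and milk (-0.68) lists also ran against it in WT, and neutrophil markers less so (-0.23). Macrophage (-0.79 in WT and -0.67 in KO), fibroblast (-0.61 and -0.68) and endothelial lists (-0.51 and -0.57) did so in both genotypes. The B and plasma cell list was at -0.69 in WT and -0.36 in KO. Whether these correlations differ between the genotypes was not tested. The lowest Fetub in KO, 9.49, was that of KO parous without metastasis replicate 2. The highest KO list means of basal (8.65) and neutrophil markers (7.27) were in the group of this tumour. How far the correlations in KO rest on it was not tested.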

How the data were processed

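RNA of 18 mammary tumours was measured. The authors deposited log2 expression values of 35556 probe sets an array, made with RMA and the oligo package per the submitters' processing notes; no version is stated there. RMA normalizes by quantiles and compresses dim genes. Array medians were 7.60 to 7.67, and the number of arrays limits precision.

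Of the probe sets, 21789 had 1 gene in the platform annotation, 1621 several and 12146 none. The brightest was kept for each of 19938 genes, of which 19855 matched RefSeq genes by Entrez identifier. The nearly identical arrays were averaged. Differences came from limma 3.58.1 in R 4.3.3 (6 group means, 2-sided, Benjamini-Hochberg adjusted p under 0.05 over all genes), checked on simulated data. Single values in KO tumours were compared with exact permutation tests. Alternatives changed the normalization, filter, probe set rule, samples and block. The labels call the replicates biological.

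Fetub and the 19 lists (283 of 305 entries matched) were chosen with earlier results of these data known. Named genes were Fetub, its family and the astacins, called members of other lists and those at the ends of a range, and the 10 highest, 5 lowest and 5 best in both genotypes by r. The members at the ends of a range, the marker genes given as levels and the interferon-stimulated genes were chosen after their values were seen.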

Additional observations from a re-analysis of the deposited data

How the results depend on the processing

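The WT difference of Fetub, which chose the gene, lay between 3.89 and 4.81 with a sample left out. The KO parity difference without metastasis lay between -0.73 and 0.96 with a sample left out, and that of metastasis in KO parous tumours between -1.25 and 1.42. Over all KO tumours the parity difference was -0.053 with all 18 arrays and -0.091 in mice without metastasis, and lay between -0.18 and 0.70 with a sample left out. With all 18 arrays the metastasis difference of Fetub was -0.36. None of these alternatives passed the threshold in KO tumours, and the causes of the changes of sign were not tested.

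The 478 genes called in WT parity were 878 when only the 2 groups were fitted, 57 to 439 with a WT sample left out (57 and 66 without WT nulliparous replicates 4 and 1, 82 and 85 without WT parous replicates 3 and 4, 259 and 274 without WT parous replicates 1 and 2), and 770 without KO parous replicate 2 without metastasis, an alternative chosen after seeing the data. Calls with a sample left out were 0 to 2 for KO parity (2 without KO parous replicate 1) and 0 to 5 for KO metastasis (5 without the averaged pair).

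With the replicate number as a block, 212 genes were called in WT parity (54 higher and 158 lower), and the differences of Fetub were 4.32 in WT parity, -0.09 in KO parity and 0.44 in KO metastasis. The correlations of deviations of same-numbered samples were -0.18 to 0.04 in WT parity, -0.30 to -0.03 in KO parity and 0.18 and 0.39 in KO metastasis, so the numbers were not taken to pair the samples.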
